A study of Mus musculus with 5 samples.

Results

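The 63 genes described here encode subunits of the mitochondrial respiratory chain and 8 of its assembly factors. They were taken by symbol, as all genes whose single annotated symbol starts with Nduf, Sdha to Sdhd, Uqcr, Cyc1, Cox4 to Cox8 or Atp5, out of 14807 genes with a probe set of 1 symbol. Of the 63, 27 belong to complex I, 4 to complex II, 6 to complex III, 10 to complex IV and 8 to complex V, the ATP synthase. The 8 assembly factors, Ndufaf1 to Ndufaf5 and Ndufaf7 with Sdhaf2 and Sdhaf4, carry the same prefixes without being part of a finished complex. Each gene had 1 probe set. RefSeq lists 101 protein-coding mouse genes with these prefixes. Those outside the 63, among them Ndufs3, Cox5b and Cox8a, were not analysed here, except those on 8 probe sets of several symbols.

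RNA came from CD11b+Gr1+ cells, about 100000 per sample, sorted from lungs of wild-type mice. CD11b is an integrin chain, and Gr1 antibodies bind Ly6 proteins of neutrophils and inflammatory monocytes, so that a sample mixes granulocytic and monocytic cells, which the labels call myeloid progenitors. The tumor-challenged mice (2 arrays) carried LLC-RFP cells, a Lewis lung carcinoma line that makes a red fluorescent protein, for 9 days after 5000000 cells were injected under the skin. The control wild-type mice (3 arrays) were not challenged, and the labels state no strain, age or sex, nor whether a sample pooled several mice, so p-values measure only the spread between these samples. The comparison sets lung CD11b+Gr1+ cells of mice with a tumor under the skin against those of mice without one.

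The respiratory chain passes electrons from NADH (through complex I) and from succinate (through complex II) to ubiquinone, then through complex III and cytochrome c to complex IV, which reduces oxygen. Complexes I, III and IV pump protons, and complex V uses the resulting gradient to make ATP. Most subunits are encoded in the nucleus and imported, and a few are encoded by mitochondrial DNA. Mature neutrophils rely mostly on glycolysis and keep few mitochondria, while their precursors, monocytes and macrophages respire more.

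The members' promoters are shown first for 3 genes, picked by hand. Their tumor-challenged arrays lay above all control arrays. Their upstream bases hold a match to a motif of a factor known to bind respiratory chain genes. Ndufa5, Ndufa8 and Ndufb7 shared both traits and are not shown. Members with overlapping arrays, such as Sdha, Cox6b1 and Atp5e, also had upstream matches. The sequences are the 250 bases before the annotated start, 5′ to 3′ on the gene's strand, from RefSeq on build GRCm38.p6, with matches in capitals. Ndufs6 lies at chr13:73328483-73328732 on the minus strand, with an NRF1 match whose first base is at -16 relative to the start. Sdhd lies at chr9:50603850-50604099 on the minus strand, with an NRF1 match at -79 and an ETS match at -46. Cox6a1 lies at chr5:115348959-115349208 on the minus strand, with NRF1 matches at -162 and -117 and an ETS match at -16.
Ndufs6: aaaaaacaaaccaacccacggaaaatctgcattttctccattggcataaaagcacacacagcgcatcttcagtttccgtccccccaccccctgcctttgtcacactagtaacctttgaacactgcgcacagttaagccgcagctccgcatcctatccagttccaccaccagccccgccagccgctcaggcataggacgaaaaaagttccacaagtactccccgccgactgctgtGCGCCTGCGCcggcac
Sdhd: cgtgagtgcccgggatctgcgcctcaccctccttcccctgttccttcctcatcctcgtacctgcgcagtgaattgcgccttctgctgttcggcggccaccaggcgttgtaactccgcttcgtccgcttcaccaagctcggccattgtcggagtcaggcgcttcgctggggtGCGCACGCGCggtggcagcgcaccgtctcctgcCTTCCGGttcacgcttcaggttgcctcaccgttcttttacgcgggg
Cox6a1: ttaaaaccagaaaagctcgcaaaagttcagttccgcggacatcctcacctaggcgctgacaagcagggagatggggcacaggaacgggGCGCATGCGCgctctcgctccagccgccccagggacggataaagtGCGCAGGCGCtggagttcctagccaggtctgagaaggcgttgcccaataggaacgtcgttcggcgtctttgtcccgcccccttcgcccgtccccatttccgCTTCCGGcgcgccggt

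Windows of 300 bases, which add 50 bases after the start, were found for 51 of the 63 genes (54 windows) and were searched on both strands. The NRF1 motif, the site of nuclear respiratory factor 1 marked in the Ndufs6 sequence, was present in 13 of the 54 windows (24.1%), against 4.6% of all 32851 windows in the table. The ETS motif of GABP, CCGGAAG, was in 9 (16.7%, against 8.86%), and the YY1 motif, AAGATGGC, in 8 (14.8%, against 2.75%). At least 1 of these 3 was in 27 windows (50%, against 14.7%), and no matches overlapped each other. The general promoter element CCAAT was in 23 (42.6%, against 37.4%). These matches describe the letters of the windows. Ndufs6 also had a YY1 match at 34, after the start.

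Values are log2 RMA expression values, in which 1 unit is a 2-fold change, and differences are tumor-challenged minus control. Values per array are listed in the order control replicates 1, 2 and 3, then tumor-challenged replicates 1 and 2. The probe sets of chemosensory receptors, 840 in all, set a background level of 6.91 as the 95th percentile of their means, and 55 of the 63 members had a mean above it. The arrays differed in overall spread. The standard deviation over all probe sets was 1.61 in tumor-challenged replicate 1 and between 1.48 and 1.55 in the others, and the upper quartile ran from 7.90 in control replicate 3 to 8.23 in tumor-challenged replicate 1. The mean value of Itgam, which encodes CD11b, was 10.77 in the control group (SD 0.16, n = 3) and 10.96 in the tumor-challenged group (SD 0.21, n = 2), and the other measured markers of the sorted population also had means above the background level.

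Respiratory chain genes stood slightly higher after tumor challenge, with a median difference of 0.26 log2 over the 63 genes against 0.02 over all 16661 probe sets. The difference was positive for 58 members (92.1%), where 57.8% of all probe sets were positive, and 65.6% of those above the background level. Both tumor-challenged arrays lay above all 3 control arrays for 17 members (27.0%), and for 11.2% of all probe sets and 15.0% of those above the background level. No member had both arrays below all controls, which 7.83% of all probe sets and 6.77% of those above the background level did. No member passed the test (limma, p adjusted over all probe sets by Benjamini-Hochberg, from 0.645 to 1), 0 of all probe sets did (0.00%), and at an unadjusted p under 0.05 there were 5 members, all higher, against 3.58% of all probe sets higher and 2.96% lower. None of the members differed by 2-fold, which 0.144% of all probe sets did upward.

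The arrays within a group did not agree on the size. Against each gene's control mean, the median member stood at 0.17, 0.03 and -0.21 in control replicates 1, 2 and 3, and at 0.47 and 0.10 in tumor-challenged replicates 1 and 2. Tumor-challenged replicate 1 gave the highest of the 5 values for 53 members (84.1%), against 33.9% of all probe sets and 54.6% of those above the background level. Control replicate 3 gave the lowest for 47 (74.6%), against 37.1% and 45.6%. Tumor-challenged replicate 2 lay above all 3 controls for 19 members (30.2%), where 25.1% of all probe sets and 20% of those above the background level did. With tumor-challenged replicate 1 and control replicate 3 both left out, the median difference was 0.01 with 32 of 63 members positive. All probe sets then had a median of -0.02 with 6966 of 16661 positive, and those above the background level a median of -0.08 with 2760 of 8024 positive. In that comparison 19 members had separate arrays on the higher side (30.2%), close to the 28.9% of all probe sets.

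The picture by array depended on the scale. After quantile normalization of the deposited values, which gives all arrays the same distribution, the median member stood at 0.07, 0.04 and -0.12 in the controls and at 0.24 and 0.19 in the tumor-challenged arrays. Both tumor-challenged arrays then lay above all controls for 36 members (57.1%, against 13.9% of all probe sets) and below all controls for Ndufa12 and Cox8b (against 12.4%), and tumor-challenged replicate 2 lay above all controls for 42 members (66.7%, against 30.3%). The median difference was 0.21, or 0.14 without tumor-challenged replicate 1 and control replicate 3, and 56 members were positive (against 52.2% of all probe sets). Cyclic loess, which removes intensity-dependent differences between arrays, gave 37 members higher with separate arrays (against 13.2%), 42 with tumor-challenged replicate 2 above all controls (against 27.8%), 56 positive (against 50.2%) and a median of 0.21. Simpler scalings moved the counts less. Centering each array on its median left 19 members separate on the higher side (against 9.56% of all probe sets) with a median of 0.23. Centering and scaling to a common median absolute deviation left 20 (against 11.9%), with a lower median of 0.15, 51 members positive and a median of 0.03 for complex V. Within each array, the median member ranked at percentile 85.3, 85.7 and 83.3 of all probe sets in the controls and 87.7 and 86.7 in the tumor-challenged arrays. No member passed the test on these scales either (lowest limma adjusted p of 0.254 after quantile normalization and 0.241 after cyclic loess).

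**Figure D1:**
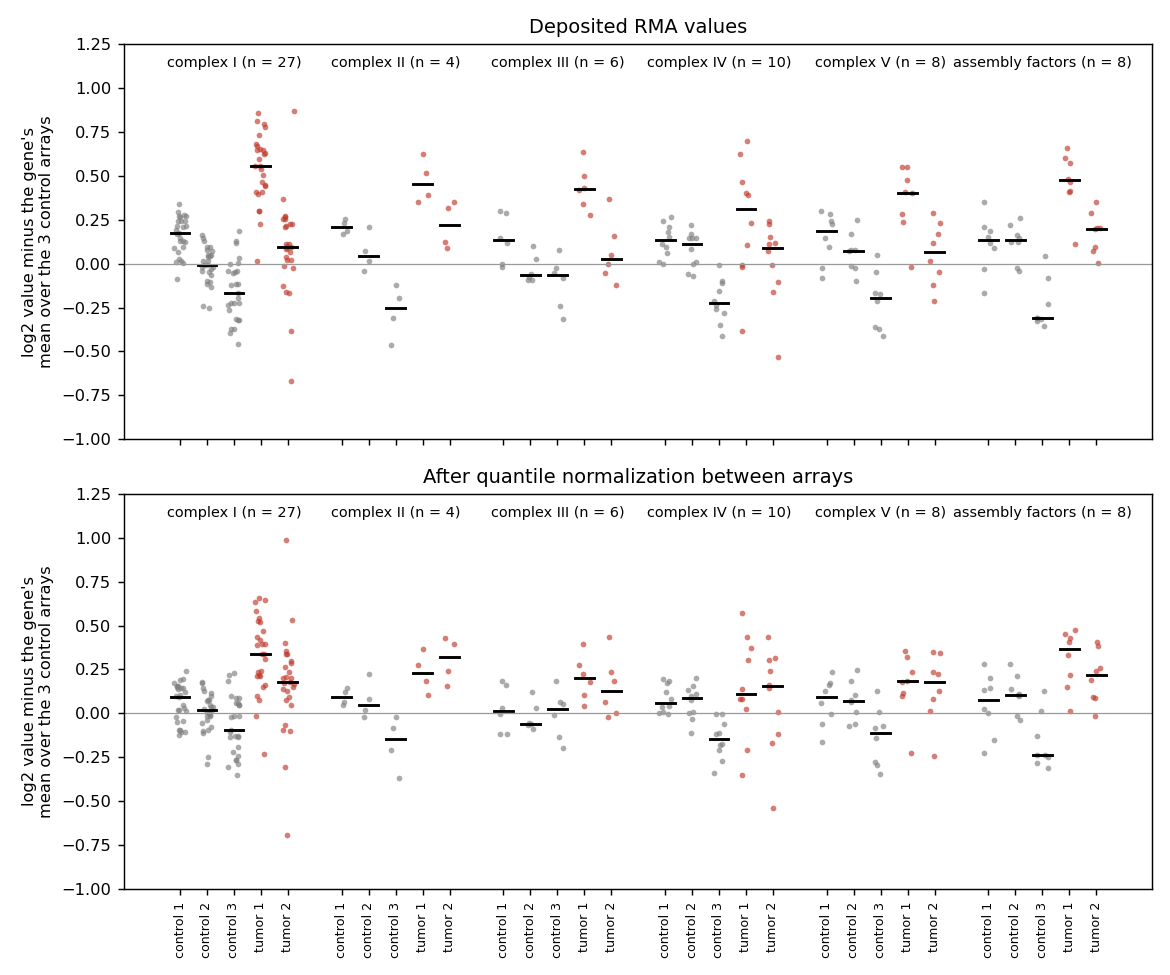
Each point is 1 gene on 1 array, as its log2 value minus the gene's mean over the 3 control arrays, for complexes I to V and the assembly factors (controls gray, tumor-challenged red, black bars the median over genes), with deposited values above and quantile-normalized values below. In the deposited values tumor-challenged replicate 1 stands highest (0.47 for the median member) and replicate 2 close to control replicate 1 (0.10 against 0.17), while after quantile normalization both tumor-challenged medians (0.24 and 0.19) lie above the 3 control medians.

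Complex I, the NADH dehydrogenase and the largest complex, had a median difference of 0.31 over its 27 measured subunits, with 25 positive. The arrays were separate for 9, all higher (33.3%, against 11.2% of all probe sets and 15.0% of those above the background level). The largest difference of all members was in Ndufs6, a zinc-binding accessory subunit that joins late in assembly. Ndufs6 read 10.41, 10.27 and 9.75 in controls and 11.00 and 11.01 after tumor challenge, a 1.82-fold higher mean with a log2 difference of 0.86 ± 0.22 (SE, limma adjusted p = 0.662). Unlike the typical member, Ndufs6 was as high in tumor-challenged replicate 2 as in replicate 1. Against its control mean it stood at 0.85 and 0.87 in the tumor-challenged arrays, where the median of the other complex I subunits stood at 0.55 and 0.09. Its difference was 0.67 without tumor-challenged replicate 1 and control replicate 3, and 0.82 after quantile normalization.

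The core subunits of complex I carry the flavin and the iron-sulfur clusters. Ndufs7, which holds the last cluster before ubiquinone, read 8.70, 8.69 and 8.63 in controls and 9.27 and 8.93 after tumor challenge (difference 0.43 ± 0.12, SE). Its control arrays lay within a narrow range and both tumor-challenged arrays above it. Ndufs8, another cluster-bearing core subunit, read 8.56, 8.42, 8.31, 9.08 and 8.45, with only tumor-challenged replicate 1 above the controls. Ndufv1, which binds NADH and the flavin, read 8.36, 8.06, 7.65, 8.80 and 8.12 (0.44 ± 0.31, SE), and Ndufv2, its neighbor, read 8.98, 8.70, 8.76, 9.32 and 8.80. Ndufs1, the largest core subunit, read 9.02, 8.80, 8.43, 9.16 and 8.86. In these 3 genes tumor-challenged replicate 2 lay below control replicate 1, so the groups overlapped, and without tumor-challenged replicate 1 and control replicate 3 their differences were -0.09, -0.04 and -0.05.

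Several accessory subunits had separate arrays. Ndufa3, a small subunit of the membrane arm, read 10.24, 10.26 and 9.85 in controls and 10.91 and 10.39 after tumor challenge (0.54 ± 0.22, SE). Ndufb3, also of the membrane arm, read 11.93, 11.77, 11.37, 12.32 and 12.06 (0.50 ± 0.20, SE). Ndufb2 read 7.33, 7.12, 6.97, 7.95 and 7.35 (0.51 ± 0.22, SE), with tumor-challenged replicate 2 above the highest control by 0.01 in unrounded values. Ndufa5, of the arm that faces the matrix, read 8.32, 7.94, 8.32, 8.59 and 8.42 (0.31 ± 0.15, SE). The other separate ones had smaller differences, namely Ndufa8 (0.26), Ndufa13 (0.26) and Ndufb7 (0.24), and Ndufb7 had the lowest adjusted p of the members (0.645), at an SE of 0.06. After quantile normalization the groups overlapped for Ndufb7 (0.17, limma adjusted p = 0.761), Ndufa13 (0.18) and Ndufa5 (0.23), and the other 14 of the 17 members had separate arrays on that scale too. Ndufa12 was the lowest of the complex, at 9.32, 9.17, 9.42, 9.32 and 8.92 (-0.18 ± 0.16, SE), and Ndufb11 was the other negative one (-0.06 ± 0.40, SE). Ndufa7 (control mean 4.51) and Ndufb11 (6.89) were the complex I members whose means over the arrays did not exceed the background level.

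Complex II, succinate dehydrogenase, also works in the tricarboxylic acid (TCA) cycle and is encoded wholly in the nucleus. All 4 of its genes were measured, and all differences were positive, with a median of 0.35. Sdha, the flavoprotein that oxidizes succinate, read 10.04, 9.88 and 9.50 in controls and 10.20 and 9.93 after tumor challenge (0.26 ± 0.20, SE). Sdhb, the iron-sulfur subunit, read 9.01, 8.80, 8.72, 9.47 and 8.93 (0.36 ± 0.20, SE). In both genes tumor-challenged replicate 2 lay among the controls. The membrane anchors had separate arrays. Sdhc read 8.54, 8.49, 7.82, 8.80 and 8.60 (0.42 ± 0.26, SE), or 0.09 without tumor-challenged replicate 1 and control replicate 3, and Sdhd read 8.49, 8.32, 8.11, 8.66 and 8.66 (0.35 ± 0.13, SE), or 0.25 without them. After quantile normalization the arrays were separate on the higher side for all 4 (against 13.9% of all probe sets). Differences then ran from 0.21 for Sdha to 0.34 for Sdhc, with a median of 0.27.

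Complex III, the cytochrome bc1 complex, had 6 measured subunits, all with positive differences and a median of 0.23. Cyc1, cytochrome c1, which hands electrons to cytochrome c, had the largest. It read 8.78, 8.52 and 8.18 in controls and 9.13 and 8.86 after tumor challenge, a 1.42-fold higher mean (0.50 ± 0.21, SE). The core proteins, which face the matrix, differed less. Uqcrc1 read 8.62, 8.38, 8.42, 8.81 and 8.63 (0.25 ± 0.11, SE), with separate arrays by 0.01, and Uqcrc2 read 9.71, 9.50, 9.57, 10.09 and 9.47 (0.19 ± 0.21, SE). Uqcrfs1, the Rieske iron-sulfur protein, was lowest of the complex, at 8.42, 8.35, 8.50, 8.70 and 8.37 (0.11 ± 0.12, SE). The small subunits Uqcr10 and Uqcrq differed by 0.24 and 0.21, with overlapping arrays.

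Complex IV, cytochrome c oxidase, held genes of both directions. Its median difference was 0.11 over 10 genes, with 7 positive and 1 with separate arrays (10%, against 11.2% of all probe sets). The 3 negative genes, Cox7b2, Cox7a2 and Cox8b, all had means below the background level, and the 6 genes above it were all positive with a median of 0.29, the same as that of all members above the level. Subunits of the ubiquitous enzyme were at the upper end. Cox6b1, which lies on the cytochrome c side, read 11.70, 11.63 and 11.05 in controls and 12.16 and 11.58 after tumor challenge (0.41 ± 0.29, SE). Cox4i1, the common form of the subunit that binds ATP, read 11.45, 11.27, 10.84, 11.81 and 11.34 (0.39 ± 0.25, SE). For both, tumor-challenged replicate 2 lay within the control range. Cox6a1, the form of subunit VIa found in most tissues, read 11.56, 11.59, 11.19, 11.91 and 11.67 (0.34 ± 0.16, SE) and had separate arrays, while Cox5a, a matrix-side subunit, read 9.00, 8.79, 8.75, 9.24 and 8.92 (0.24 ± 0.14, SE).

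With all arrays, the genes of tissue-restricted forms did not share that position. Cox4i2, the form of subunit IV known from lung, read 6.70, 6.75, 6.37, 6.71 and 6.85, below the background level in the mean of both groups (0.17 ± 0.14, SE). Cox6a2, the heart and skeletal muscle form, read 8.12, 7.91, 7.70, 7.89 and 8.02 (0.05 ± 0.14, SE), above the background level, with overlapping arrays. Cox8b, also a heart and muscle form, read 6.25, 6.39, 6.09, 5.86 and 6.14, below the background level, and had the lowest difference of the complex (-0.25 ± 0.13, SE). Cox7b2, a testis form, read 4.72, 4.73, 4.71, 4.71 and 4.71, without a difference beyond its spread. Of the 4 measured muscle and heart markers 1, Ckm, had a mean above the background level, and their median difference was 0.07. Of the forms found in most tissues, Cox7a2 read 6.62, 6.37, 6.33, 6.84 and 5.91, below the background level. Cox7b read 7.35, 7.51, 7.01, 7.52 and 7.13 (0.03 ± 0.20, SE), so that not all subunits of the ubiquitous enzyme stood higher. The bright probe set shared by Cox6c, also of this complex, and EG621837 differed by -0.04 ± 0.07 (SE). Without tumor-challenged replicate 1 and control replicate 3, Cox6b1, Cox4i1, Cox6a1 and Cox5a differed by -0.08, -0.02, 0.09 and 0.03. Cox4i2, Cox6a2, Cox8b and Cox7b2 then differed by 0.12, 0.01, -0.18 and -0.01, so the ubiquitous forms no longer stood above them as a group.

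Complex V had a positive difference for all 8 measured genes, with a median of 0.21. Of the catalytic head, Atp5a1 (alpha) read 10.44, 10.24 and 9.80 in controls and 10.71 and 10.39 after tumor challenge (0.39 ± 0.23, SE), and Atp5b (beta) read 10.98, 10.91, 10.33, 11.14 and 10.86 (0.26 ± 0.24, SE). Their tumor-challenged replicate 2 lay below control replicate 1. Atp5d (delta), of the central stalk, read 8.14, 8.12, 7.87, 8.52 and 8.21 (0.32 ± 0.14, SE) and was the gene of this complex with separate arrays. Atp5g3, 1 of the genes of the rotating c ring, read 11.12, 10.88, 10.93, 11.26 and 10.93 (0.12 ± 0.14, SE). Atp5pb, of the peripheral stalk, read 7.10, 7.10, 7.17, 7.36 and 6.91 (0.01 ± 0.15, SE), with the tumor-challenged arrays on either side of the controls. Atp5e, Atp5mpl and Atp5j2 differed by 0.21, 0.21 and 0.13.

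**Figure D2:**
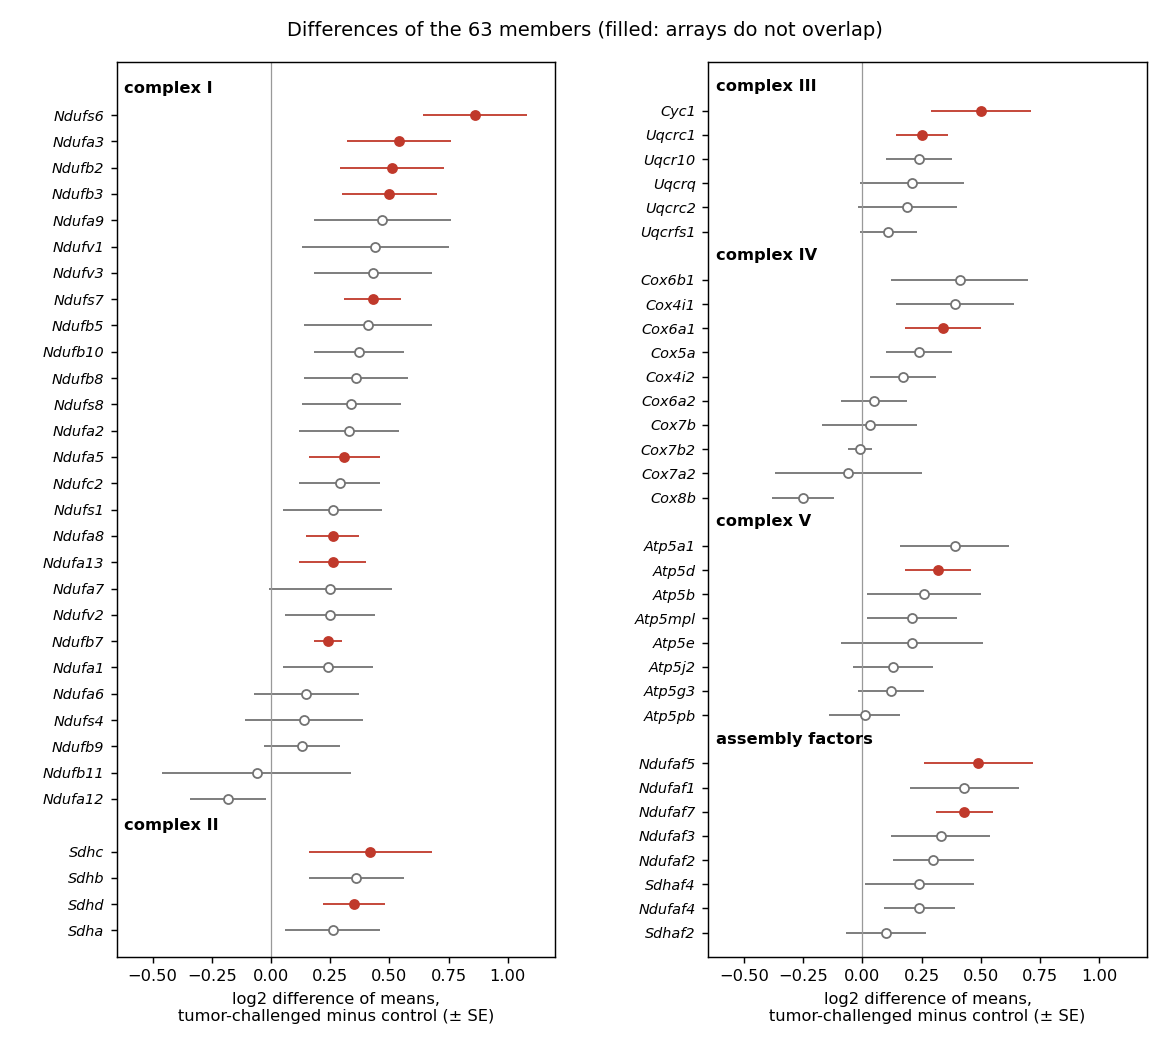
Log2 difference of means (x axis, tumor-challenged minus control, bars ± SE from limma, n = 2 and 3 arrays) for each of the 63 members, grouped by complex, with filled red points where both tumor-challenged arrays lie above all control arrays. Most points lie to the right of 0, Ndufs6 farthest at 0.86, and 5 lie to its left, Cox8b farthest at -0.25.

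Assembly factors among the members, which act on complexes without staying in them, had a median difference of 0.32, with 8 of 8 positive. Ndufaf7, a methyltransferase needed for complex I assembly in human cells, read 9.30, 9.14 and 9.10 in controls and 9.75 and 9.47 after tumor challenge (0.43 ± 0.12, SE). Ndufaf5, which is known from human cells to hydroxylate the product of Ndufs7, read 7.93, 7.55, 7.25, 8.18 and 7.93 (0.49 ± 0.23, SE). Both had separate arrays, Ndufaf5 by 0.01. Sdhaf2, which helps to attach the flavin to the Sdha product, was lowest, at 7.29, 7.23, 6.80, 7.22 and 7.20 (0.10 ± 0.17, SE), with the 2 tumor-challenged arrays inside the control range. Ndufaf3 and Sdhaf4 had means below the background level.

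**Figure D3:**
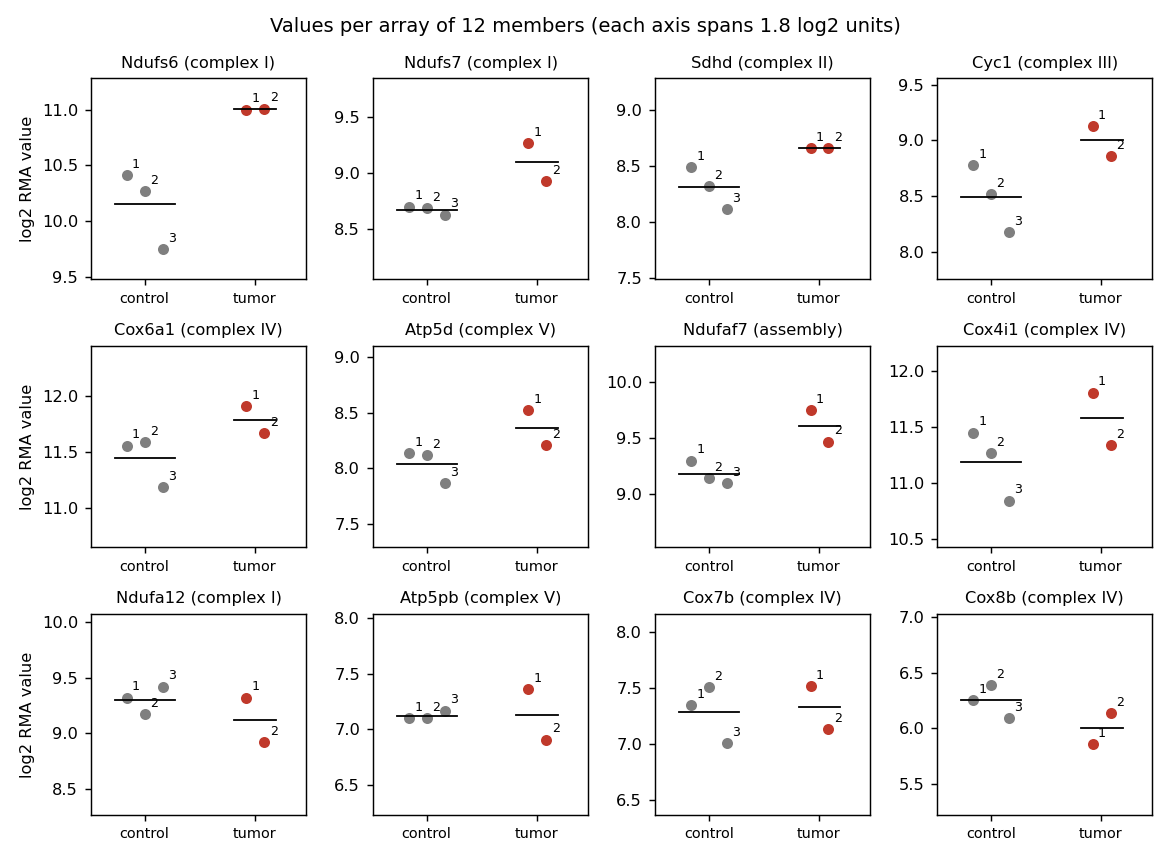
Log2 RMA value of 12 members on each array (gray controls, red tumor-challenged, numbers the replicate, lines the group means, each y axis spanning the same range). Ndufs6, Ndufs7, Sdhd, Cyc1, Cox6a1, Atp5d and Ndufaf7 have both tumor-challenged points above all control points, while in Cox4i1, Ndufa12, Atp5pb, Cox7b and Cox8b the groups overlap.

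Other mitochondrial genes were set beside the members by lists that hold no member. The mitochondrial ribosome, which translates the subunits encoded in mitochondrial DNA, had a median difference of 0.26 over 68 genes, with 62 positive and 31 with separate arrays on the higher side (45.6%, against 11.2% of all probe sets) and 1, Mrps5, on the lower side (-0.19 ± 0.11, SE). After quantile normalization its median was 0.16 with 57 positive and 31 separate (against 13.9%), and without tumor-challenged replicate 1 and control replicate 3 its median was 0.10 with 45 positive. Its largest differences were in Mrpl51 (0.83 ± 0.74, SE, below the background level, with control replicate 3 at 4.35), Mrps18c (0.68 ± 0.22) and Mrps25 (0.63 ± 0.24). TCA cycle genes were positive in 16 of 16, with a median of 0.22. Of these, 3 had separate arrays (18.8%, close to the 15.0% of all probe sets above the background level). After quantile normalization 8 were separate (50%, against 13.9% of all probe sets), with a median of 0.14 and 11 positive. Without tumor-challenged replicate 1 and control replicate 3 the TCA median was -0.05 with 5 of 16 positive. Its direction turned, as did that of all probe sets above the background level, whose median went from 0.07 to -0.08. The 3 that were separate in the deposited values were fumarase, Fh1 (0.66 ± 0.22, SE), Idh3b of isocitrate dehydrogenase (0.49 ± 0.24) and malate dehydrogenase, Mdh2 (0.48 ± 0.13). Import genes had a median of 0.18 over 14, with 12 positive. Of the 14, 6 were separate on the higher side (42.9%, against 11.2% of all probe sets and 15.0% of those above the background level). After quantile normalization their median was 0.12, with 4 separate on the higher side (28.6%, against 13.9%) and 1 on the lower (against 12.4%). Without tumor-challenged replicate 1 and control replicate 3 it was -0.07 with 6 of 14 positive, against -0.08 over all probe sets above the background level. In the deposited values the import genes were led by Timm17a (0.66), Timm8b (0.55) and Timm21 (0.55).

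Lists with smaller shifts were those of other assembly factors, electron carriers, regulators and cytosolic ribosomal proteins. Assembly factors outside the members had a median of 0.10 over 30 genes, with 21 positive and 5 separate (16.7%, close to the 15.0% of all probe sets above the background level), led by Uqcc3 (0.73 ± 0.37, SE), Coa3 (0.69 ± 0.36) and Higd2a (0.50 ± 0.19). After quantile normalization their median was 0.03, with 5 separate on the higher side (16.7%, against 13.9% of all probe sets) and 2 on the lower (against 12.4%). Without tumor-challenged replicate 1 and control replicate 3 it was -0.04, against -0.08 over all probe sets above the background level. Timmdc1, which is on this list and on the import list, is counted among the separate genes of both. Electron carriers and inner membrane partners had a median of 0.14 over 9 genes, with 7 positive. Of the 9, 2 were separate on the higher side (22.2%, against 11.2% of all probe sets and 15.0% of those above the background level). Etfb, of the electron transfer flavoprotein, differed by 0.40 ± 0.32 (SE), Atpif1, the inhibitor of the ATP synthase, by 0.35 ± 0.11, and Etfa by 0.25 ± 0.09. After quantile normalization the median of these 9 genes was 0.08. Of the 9, 3 were then separate on the higher side (33.3%, against 13.9% of all probe sets) and 2 on the lower (against 12.4%). Regulators of mitochondrial genes had a median of -0.03 over 17, with 8 positive. On the higher side 1 was separate (5.88%, against 11.2% of all probe sets). It was Tfb1m, a methyltransferase of mitochondrial ribosomal RNA (0.28 ± 0.11, below the background level). On the lower side 1 was separate (5.88%, against 7.83%), Gabpb1, a subunit of GABP (-0.18 ± 0.09). After quantile normalization 3 were separate on the higher side (17.6%, against 13.9%) and 3 on the lower (against 12.4%). In the deposited values the largest difference was that of Myc at -0.40 ± 0.22, and Hif1a, the hypoxia-inducible factor, was at 0.23 ± 0.19. Cytosolic ribosomal protein genes had a median of 0.07 over 20, with 13 positive. Of the 20, 3 were separate on the higher side (15%, the same as the 15.0% of all probe sets above the background level). The list was led by Rps20 (0.84 ± 0.26), Rps3 (0.43 ± 0.32) and Rpsa (0.38 ± 0.08). After quantile normalization its median was 0.02, with 5 separate on the higher side (25%, against 13.9% of all probe sets) and 1 on the lower (against 12.4%). None of these genes passed the test over all probe sets (lowest limma adjusted p of 0.517, in the mitochondrial ribosome list). Genes of mitochondrial DNA were not analysed here.

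**Figure D4:**
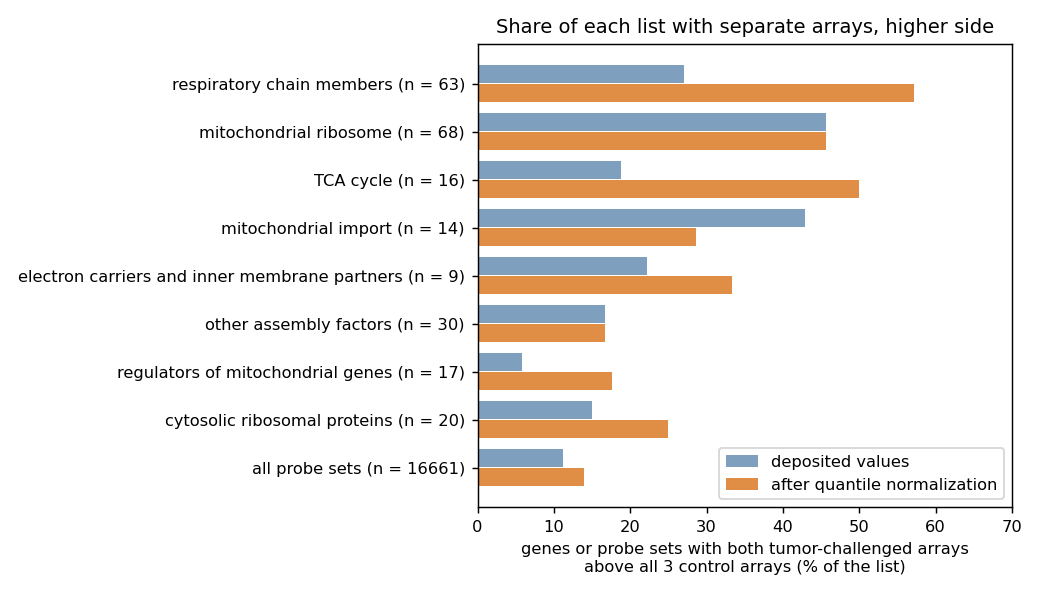
Share of genes (x axis, percent) with both tumor-challenged arrays above all 3 control arrays, for the 63 members, for 7 other lists and for all probe sets, in deposited values (blue) and after quantile normalization (orange). The members go from 27.0% to 57.1% and the mitochondrial ribosome stays at 45.6%, while all probe sets go from 11.2% to 13.9%.

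Markers of other cells also differed between the groups, and in bulk samples fewer cells of a type and less RNA per cell cannot be told apart. Lung epithelial markers were higher in 12 of 14 genes (median 0.28), with a summed linear level of 5547 to 10164 in controls and 9038 to 9632 after tumor challenge, and 2 of the 14 were below the background level. Against the control mean, their median stood at -0.19, 0.16 and -0.02 in the controls and at 0.25 in both tumor-challenged arrays. Erythroid markers were higher in 6 of 6 genes (median 0.34, summed level 443 to 536 against 699 to 746), with 5 of the 6 below the background level over all arrays. B-cell markers were lower in 9 of 9 genes (median -0.60, summed level 1820 to 2268 against 1397 to 1451), with 3 below the background level. Platelet markers had a summed level of 835 to 1096 against 1161 to 1995, with Pf4 (1.10 ± 0.54, SE) and Ppbp (1.00 ± 0.39) highest in tumor-challenged replicate 1 and 4 of 6 positive. Alveolar macrophage markers had a median of -0.12 over 9 genes. Of these, 4 were separate on the lower side (44.4%, against 7.83% of all probe sets), among them Lpl (-0.83 ± 0.18) and Mrc1 (-0.48 ± 0.09). The other direction was taken by 3, Chil3 (0.09), Siglecf (0.05) and Cd68 (0.01), with overlapping arrays. Dendritic cell markers ran from -1.17 (Clec9a) to 1.27 (Flt3), and those of eosinophils, basophils and mast cells from -1.48 (Ccr3) to 0.98 (Mcpt8). T and NK cell, endothelial and fibroblast markers had medians of 0.07, -0.09 and 0.00. The markers of the sorted population had a median of -0.08 over 9 genes. The part of other cells in the respiratory chain values was not tested.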

How the data were processed

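RNA of sorted CD11b+Gr1+ lung cells was amplified, biotin-labeled and hybridized to 5 arrays, per the labels' protocols. The authors deposited log2 values. RMA is the tool that the submitters' processing notes list for them, with no settings, beside mm8 without its role. RMA usually corrects background, equalizes arrays at the probe level and summarizes probes. The deposited arrays were of unequal spread, and the part of that spread in the differences of bright genes was not tested. The deposited table held 16661 probe sets, of which 14939 had 1 gene symbol, 989 several and 733 none. The number of arrays limits the precision.

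Differences between tumor-challenged (n = 2) and control (n = 3) arrays were fitted with limma 3.58.1 in R 4.3.3 on all probe sets, with no covariate and Benjamini-Hochberg adjustment at 0.05. The fit was also run on simulated arrays of equal spread, with added changes larger than the members' differences. That run cannot show how the fit handles differences as small as theirs or arrays of unequal spread. Python 3.11.15, numpy 2.4.6, pandas 2.3.3 and matplotlib 3.10.9 made counts and plots. The text gives full values for core subunits, tissue isoforms, the largest and lowest difference of each complex, and members with separate arrays and a difference of at least 0.3. Other listed genes are the 3 of each list with the largest absolute difference, with the remaining separate members, smaller subunits, Tfb1m, Gabpb1, Mrps5, Timmdc1 and the named marker genes other than Itgam chosen after their values were seen. Alternatives were centering, scaling, quantile normalization, cyclic loess, a filter on the dimmest 25% of probe sets, a replicate block and leaving out arrays. Replicate numbers were shared by 2 pairs only, whose deviations from the group means correlated at 0.285 and 0.222, and were not taken as pairing. The deviations of 2 tumor-challenged arrays from their mean mirror each other, so the correlations are not independent and cannot decide on pairing. The members and lists were chosen with earlier results of these data known. Genes of mitochondrial DNA were not analysed here, nor were genes without a probe set of 1 symbol, except those on 8 probe sets with a respiratory chain symbol.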

Additional observations from a re-analysis of the deposited data

How the results depend on the processing

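With 2 and 3 arrays no probe set passed the test with the deposited values, after quantile normalization or with any 1 array left out (0 calls by limma throughout). Calls over all probe sets numbered 1 after centering, 2 after centering and scaling and 1 after cyclic loess, and no member was among them. The members' median difference ran from 0.1 to 0.47 with 1 array left out, and those of complexes I, II, III, IV and V from 0.09 to 0.55, 0.22 to 0.45, 0.03 to 0.43, 0.02 to 0.31 and 0.07 to 0.4, each highest without tumor-challenged replicate 2. With tumor-challenged replicate 1 and control replicate 3 both left out, the medians were 0.01 for the members, 0.00 for complex I, 0.06 for complex II, 0.00 for complex III, -0.01 for complex IV and -0.08 for complex V. The count of members with separate arrays, 17 with all arrays, ran from 17 to 56 with 1 array left out (38 without control replicate 1, where 19.4% of all probe sets were separate on the higher side, and 56 without tumor-challenged replicate 2, where 37.3% were). It was 19 after centering, 20 after centering and scaling, 36 after quantile normalization and 37 after cyclic loess. With both arrays left out, where fewer arrays make separation more frequent, it was 19 with the deposited values (30.2%, against 28.9% of all probe sets), 44 after quantile normalization (69.8%, against 41.6%) and 43 after cyclic loess (68.3%, against 36.9%). The replicate block, fitted to the 2 shared numbers, gave 0 calls and a members' median of 0.21. The fits that combine a normalization with both arrays left out, the restriction to members above the background level and the addition of probe sets of several symbols were chosen after seeing the data.

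Some differences of single genes changed sign. With both arrays left out these were Ndufs1 -0.05, Atp5b -0.08, Uqcrfs1 -0.02, Sdha -0.03, Ndufv2 -0.04, Ndufs8 -0.04, Ndufv1 -0.09, Sdhaf2 -0.06, Atp5g3 -0.07, Atp5pb -0.19, Uqcrc2 -0.14, Cox6b1 -0.08, Cox4i1 -0.02 and Cox7b -0.30. With both left out after quantile normalization they were Sdhaf2 -0.02, Atp5pb -0.18, Cox7b2 0.01 and Cox7b -0.28, and Ndufv1 -0.01, Sdhaf2 -0.04, Atp5pb -0.17 and Cox7b -0.27 after cyclic loess. Without tumor-challenged replicate 1 they were Uqcrfs1 -0.06, Ndufv2 -0.01, Atp5g3 -0.05, Atp5pb -0.22, Uqcrc2 -0.12 and Cox7b -0.16, without tumor-challenged replicate 2 Ndufa12 0.02, Cox6a2 -0.02 and Cox7a2 0.40, without control replicate 1 Cox7a2 0.03, and without control replicate 3, as with the block, Sdhaf2 -0.05, Cox6a2 -0.06 and Cox7b -0.11. With all arrays they were Atp5pb -0.06, Cox7b2 0.02, Cox6a2 -0.02 and Cox7b -0.05 after quantile normalization, Atp5pb -0.04, Cox6a2 -0.05 and Cox7b -0.03 after cyclic loess, Atp5pb -0.02 after centering, and Atp5g3 -0.11, Atp5pb -0.05, Cox7b2 0.06, Cox6a2 -0.02 and Cox7b -0.02 after centering and scaling. Over the fits with 1 array left out, the far ends of these genes' ranges were 0.28 for Uqcrfs1, 0.50 for Ndufv2, 0.28 for Atp5g3, 0.24 for Atp5pb, 0.50 for Uqcrc2 and 0.23 for Cox7b without tumor-challenged replicate 2, 0.19 for Sdhaf2 and 0.15 for Cox6a2 without control replicate 1, and -0.38 for Ndufa12 and -0.53 for Cox7a2 without tumor-challenged replicate 1. The other 503 values of named genes under the alternatives kept their direction, and the cause of the sign changes was not tested.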

Other observations

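A further 8 probe sets carry a respiratory chain symbol together with another gene's symbol and were outside the 63 genes, because their signal cannot be assigned to 1 gene. The probe set of Ndufa11 and Ndufa11b, which encode a membrane arm subunit of complex I and its close copy, read 8.53, 8.64 and 8.10 in controls and 9.18 and 9.01 after tumor challenge, a difference of 0.67 ± 0.19 (SE). Both tumor-challenged arrays lay above all controls. The probe set of Atp5o and Gm5436 read 10.17, 9.92, 10.18, 10.37 and 10.18 (0.19 ± 0.12, SE), with separate arrays in unrounded values. The probe set of Ndufa10 with Olfr1415 and Olfr1416 differed by 0.48, that of Taf3 and Atp5c1 by 0.24, that of Atp5j and LOC654426 by 0.14 and that of Cox7a2l and Gm6969 by 0.08, all with overlapping arrays. The probe sets of Lrfn3 with Sdhaf1 (-0.03) and of Cox6c with EG621837 (-0.04) also overlapped. None passed the test (limma, lowest adjusted p of 0.688).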
